A study of Caenorhabditis japonica with 3 samples.

Results

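Single embryos of the nematode *Caenorhabditis japonica* from the youngest stages of the course were compared: embryos of 1, 2 and 4 cells (n = 3, 1 embryo each) against embryos frozen 10, 20, 30, 40 and 50 minutes after the 4-cell stage (n = 5, 1 embryo each). These 8 embryos, of 46 in the series, were chosen by the stage or time that the deposited embryo sheet gives them, and no measured value entered the choice. All 8 belong to the early one of 3 pooled libraries, which holds 16 embryos and runs to 130 minutes. Embryos were cut out of adult worms and washed briefly in bleach, and the timed ones were collected at the 4-cell stage and kept at 20 °C until they were frozen. The labels name no mutation or drug, nothing says whether embryos shared a mother, and the strain is not given in the sources used here. RNA was measured by CEL-Seq, in which the polyA RNA of each embryo receives a barcode, the barcoded embryos are pooled and amplified, and the 3′ ends of the transcripts are sequenced.

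In *C. elegans*, a relative of this species, the oocyte loads the egg with maternal mRNA that directs the first divisions, while the embryo's own genome is nearly silent. Transcription starts in the somatic cells within the first few divisions, often as short pulses of genes that specify the founder cells, and many maternal messages are degraded in the same period. The comparison spans the corresponding stages of *C. japonica* and asks which transcripts appear and which are lost. The files give genes by identifier and pair none with a symbol, so no gene is given a function, lists of known maternal and early embryonic genes could not be matched, and the labelled stages could not be checked against marker genes.

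The embryos differed in depth. Reads in the 3955 listed genes numbered 188509, 75884 and 48077 in the embryos of 1, 2 and 4 cells. At 10, 20, 30, 40 and 50 minutes they numbered 14260, 59988, 381377, 12038 and 404701. The embryos at 10 and 40 minutes were shallow, under 0.25 of the median of the 46 embryos (15457 reads), and those at 30 and 50 minutes supplied 90.1% of the reads of the later group. Levels are given as CPM, reads of a gene per 1000000 reads of the embryo in the listed genes. A CPM is a share, so less of a transcript per embryo, fewer cells that hold it and more of other RNA cannot be told apart. Barcode numbers ascended with age, so barcode and age cannot be told apart either.

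An embryo stood apart in each group. Over the 1910 genes tested below, the correlation of log2 CPM between the 1-cell and the 4-cell embryo was 0.85, and among the embryos at 20, 30 and 50 minutes it lay between 0.77 and 0.85. Pairs across these 2 sets ranged from 0.58 (4-cell and 50 minutes) to 0.79 (1-cell and 20 minutes), so the sets were not sharply apart. The 2-cell embryo, at 75884 reads not shallow, correlated with the other 7 at 0.48 to 0.61. The 10 minute embryo correlated at 0.37 to 0.57, and its highest value was with the 2-cell embryo. The correlations are across genes, which are not independent replicates, and low depth lowers them. Counts of changed genes are therefore given below with and without these embryos.

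**Figure D1:**
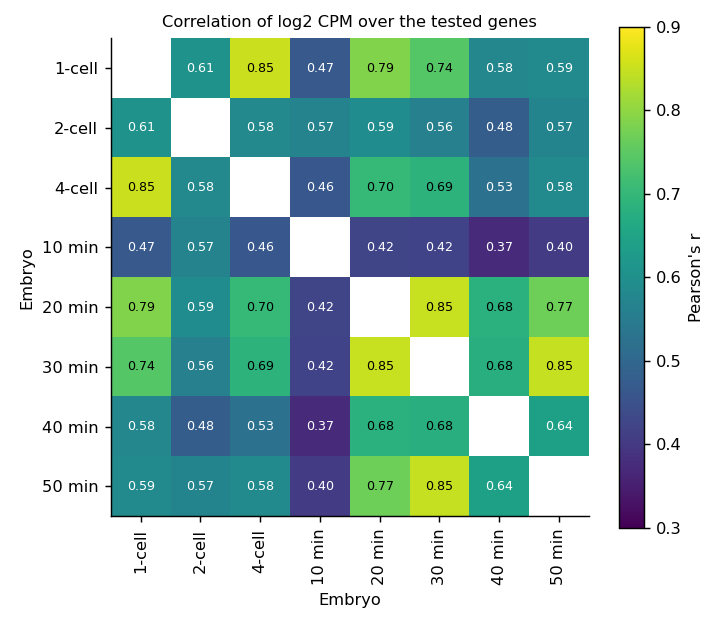
Pearson correlation of log2 CPM (prior count 2) over 1910 genes for each pair of the 8 embryos, rows and columns in order of age. The 2-cell and the 10 minute embryo have low values throughout (0.37 to 0.61), while the 20, 30 and 50 minute embryos correlate at 0.77 to 0.85.

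Transcripts that were absent or nearly absent at 1, 2 and 4 cells appeared within 50 minutes, and transcripts that were present at those stages fell. The balance of rises and falls depended on the embryos and settings used. CJA32534 had 0 reads in each of the embryos of 1, 2 and 4 cells. It had 1, 10, 95, 5 and 155 reads at 10, 20, 30, 40 and 50 minutes, which correspond to 70.1, 167, 249, 415 and 383 CPM. All 5 later embryos thus lay above all 3 earlier ones, and the 10 minute value rests on a single read. CJA32534 was picked among called genes without overlap in the embryos that were not shallow, so this order follows in part from the choice. Against the 3 reads that a count of 0 allows over the 312470 reads of the earlier group, or 9.60 CPM, the summed reads were at least 31.8-fold higher, and the edgeR adjusted p was 0.00644.

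CJA27444 was also new after the 4-cell stage. It had 0 reads in the 3 earlier embryos and in the 10 minute embryo, then 10, 126, 4 and 92 reads at 20, 30, 40 and 50 minutes (167, 330.4, 332 and 227 CPM). The groups overlapped only at the 10 minute embryo, where 1 read would have meant 70.1 CPM. The summed reads were at least 27.7-fold higher, with an edgeR adjusted p of 0.0145.

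CJA17181 fell. Its level was 472, 329 and 437 CPM at 1, 2 and 4 cells and 70.1, 100.02, 115, 83.1 and 39.5 CPM at 10 to 50 minutes. The means were 413 ± 74.3 CPM (SD, n = 3) and 81.6 ± 29.1 CPM (SD, n = 5), and the groups did not overlap. The log2 change was -2.39 ± 0.47 (SE), with an edgeR adjusted p of 0.0302. CJA12714 was less even among the early embryos, at 918, 250.4 and 645 CPM. It lay at 70.1, 200.04, 113, 0 and 79.1 CPM at 10 to 50 minutes. The groups did not overlap here either, and the log2 change was -2.55 ± 0.53 (SE), with an edgeR adjusted p of 0.0396. Both falling genes, like CJA32534 and CJA27444, were picked among called genes without overlap in the embryos that were not shallow. Their lack of overlap therefore follows in part from the choice. Over all 8 embryos, 125 of the 1910 tested genes did not overlap (6.54%).

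**Figure D2:**
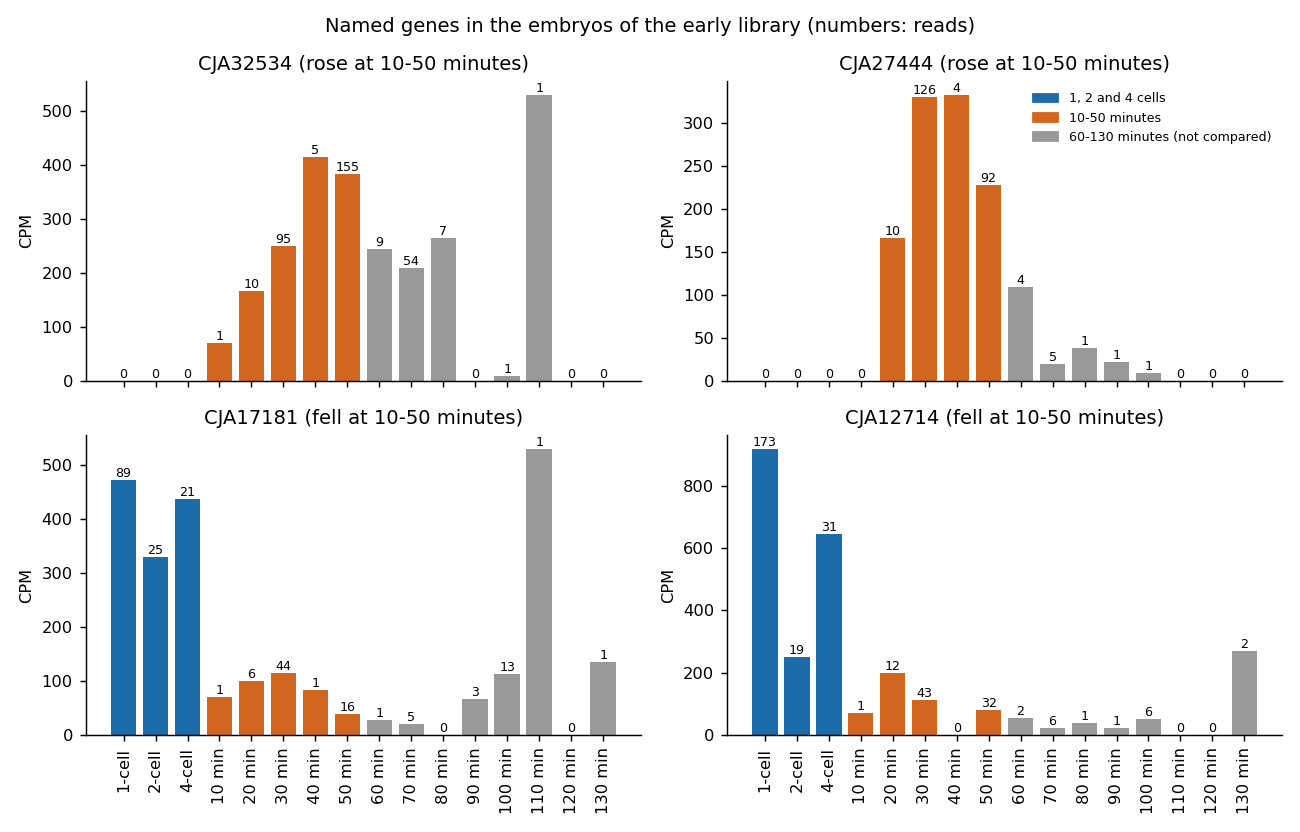
CPM of the 2 named genes that rose and the 2 that fell, in each of the 16 embryos of the early library in order of age, with the number of reads above each bar. The rising genes have 0 reads at 1, 2 and 4 cells and are above 160 CPM from 20 to 50 minutes, and the bars of 1 or 2 reads at 110 and 130 minutes come from embryos of 1890 and 7443 reads.

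In all, 11 of 1910 genes passed the test (0.576%), 8 of them higher at 10 to 50 minutes (0.419%) and 3 lower (0.157%). The median log2 change of all tested genes was 0.03. All 11 genes separated the groups without overlap over the 6 embryos that were not shallow, where 387 of the tested genes did so (20.3%). Over all 8 embryos 8 of the 11 did, as did 125 tested genes in all (6.54%). The median level of the 8 higher genes went from 2.20 to 218 CPM, while that of all tested genes was 272 CPM in both groups. Of the 8, 4 had 0 reads before and the others 1 or 2 reads in all. With so few reads before, these genes passed the low-count filter only through the later embryos. They were also called on these same 8 embryos, so their low start and high end follow in part from the choice. Among all tested genes, 13 had a log2 change above 2 and 24 one under -2. An unadjusted p under 0.05 was reached by 184 genes, 48 higher and 136 lower.

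**Figure D3:**
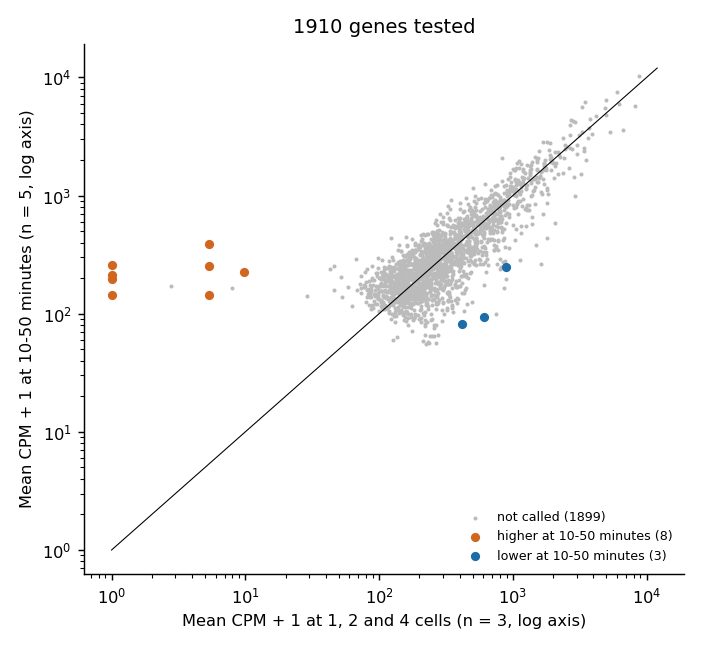
Mean CPM + 1 of the 1910 tested genes at 1, 2 and 4 cells (n = 3) and at 10 to 50 minutes (n = 5), on log axes, with the line of equality. The 8 genes called higher sit at the left edge, at means of 0 to 8.79 CPM before, away from the body of the genes, and the 3 called lower sit under the line at means of 413 to 884 CPM before. The calls were made on these same embryos, so these places follow in part from the choice.

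The count of falling genes ranged from 0 to 62 as embryos were left out in turn, and that of rising genes from 1 to 10. Without the shallow embryos at 10 and 40 minutes, 69 of 2607 genes passed (2.65%), 61 of them lower (2.34%) and 8 higher. Of the 8 higher genes 6 passed again, as did all 3 lower ones, in the same direction. The 61 lower genes had log2 changes from -5.84 to -1.68 with a median of -2.55, against a median of -0.02 over all genes tested. Leaving out the 10 minute embryo alone gave 72 genes, 10 higher and 62 lower. Leaving out the 2-cell embryo gave 37 genes, 8 higher and 29 lower, and leaving out the 20 minute embryo gave 17. With the 1-cell, the 30 minute or the 50 minute embryo left out 1 gene passed in each case, without the 40 minute embryo 2 and without the 4-cell embryo 4, all of them higher. With library size alone as scaling, 7 genes were higher and 1 lower.

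The 61 lower genes were chosen on 6 embryos, so their levels in the others are a separate measurement. Their reads made up 3.86%, 3.28% and 3.49% of the reads at 1, 2 and 4 cells, and 0.979%, 0.629% and 0.428% at 20, 30 and 50 minutes, which are the values they were chosen on. The 40 minute embryo, which had no part in the choice, gave 1.02% (95% exact Poisson interval 0.849 to 1.22, counting error only), close to the 20 minute embryo. The 10 minute embryo gave 3.24% (interval 2.95 to 3.55), which overlaps the intervals of the 2-cell embryo (3.15 to 3.41) and the 4-cell embryo (3.32 to 3.66) but not that of the 1-cell embryo (3.77 to 3.95). The embryos from 60 to 130 minutes, also not used, lay between 0.354% and 0.699%.

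The 10 minute value was not carried evenly by the 61 genes. A single gene supplied 23.4% of its 462 reads, and without that gene the summed level was 24825 CPM, below the 31390 to 36699 CPM of the embryos of 1, 2 and 4 cells and above the 4144 to 9470 CPM of those from 20 to 50 minutes. Gene by gene, 31 of the 61 lay above the midpoint of the means of the 2 groups (50.8%), against 45.0% of the other 1268 genes that were lower in the same fit. At 40 minutes, 4 of the 61 lay above it (6.56%), against 39.7% of the others. The others include genes of small change, whose midpoint lies close to both means. Their share is therefore no baseline for the 61. The part of depth in the 10 minute value was not tested.

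**Figure D4:**
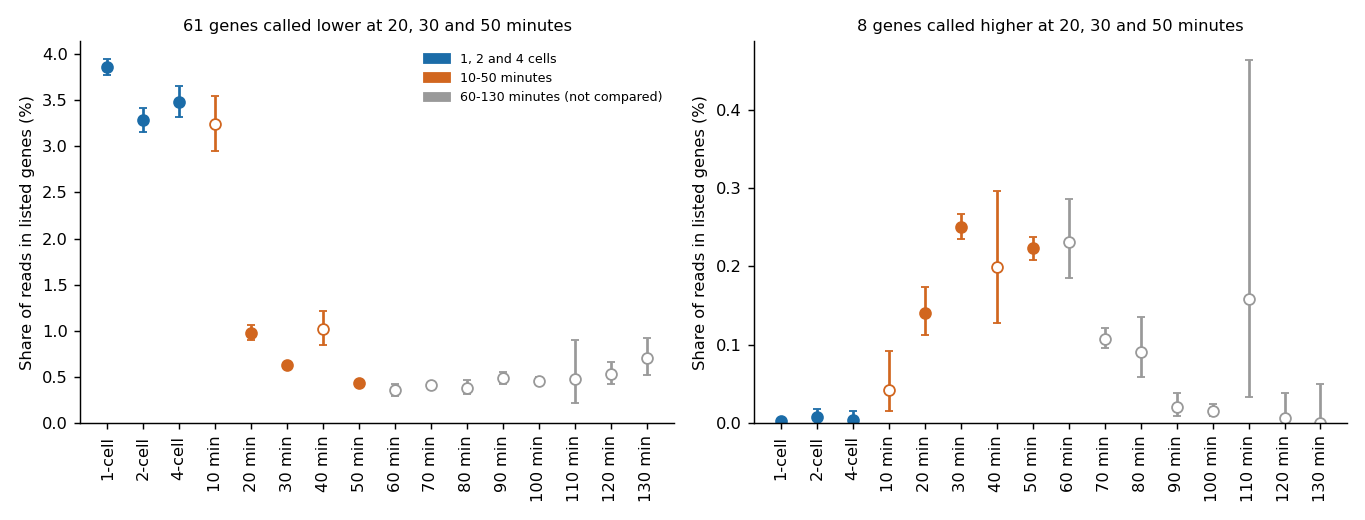
Share of the reads of each early embryo that fell in the 61 genes called lower and the 8 called higher in the fit of 6 embryos, in order of age, with 95% exact Poisson intervals. Filled points are the 6 embryos that chose the genes and open points the others; the 10 minute embryo is at 3.24% beside the embryos of 1 to 4 cells on the left and at 0.0421% on the right.

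The 8 genes called higher over 8 embryos had a lower summed level at 90 and 100 minutes than in any embryo of 10 to 50 minutes, though still above that at 1, 2 and 4 cells. They were called for high levels at 10 to 50 minutes, so the choice favours lower values later. Even so, 2 of the 8 genes had a higher mean at 60 to 100 minutes (172 and 229 CPM) than at 10 to 50 minutes (144 and 197 CPM). Their summed level was 0, 65.9 and 0 CPM at 1, 2 and 4 cells. It was 491, 1167, 2462, 2409 and 2575 CPM at 10, 20, 30, 40 and 50 minutes, so that the lowest of the later embryos was the youngest. In embryos that had no part in the test it stood at 2720 CPM at 60 minutes, 1428 and 1434 CPM at 70 and 80 minutes and 308 and 218 CPM at 90 and 100 minutes. At 120 and 130 minutes there were 0 reads of these genes, in embryos of 14709 and 7443 reads, and the 110 minute embryo of 1890 reads held 3.

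From 140 minutes on, 7 of the 8 had a mean under 3 CPM in both windows. The exception had 25 reads in 9 of the 16 embryos from 140 to 290 minutes, a mean of 14.4 CPM. Of the 8 genes, 4 had 0 reads in the 16 embryos from 140 to 290 minutes and 7 had 0 reads in the 14 embryos from 300 to 430 minutes. Among all 1910 tested genes, 7 had 0 reads in the former embryos and 12 in the latter. Those embryos lie in 2 other libraries, so library and time cannot be told apart there. CJA27444 had 232 reads at 10 to 50 minutes, 12 at 60 to 100 minutes and 0 in each of the later windows, where a count of 0 allows 125 CPM at 110 to 130 minutes, 1.59 CPM from 140 to 290 minutes and 1.85 CPM from 300 to 430 minutes. CJA32534 had 71 reads at 60 to 100 minutes, 54 of them in the 70 minute embryo, and 2 reads from 140 to 290 minutes.

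Most of the falling transcripts had higher mean levels in the last window than at 60 to 100 minutes, which was not tested. The median level of the 61 genes was 348 CPM at 1, 2 and 4 cells, 115 CPM at 10 to 50 minutes and 39.5 CPM at 60 to 100 minutes. It stood at 110 CPM from 140 to 290 minutes and 130 CPM from 300 to 430 minutes, when the median of all genes tested over 8 embryos was 157 and 115 CPM. For 49 of the 61 the mean level from 300 to 430 minutes was above that at 60 to 100 minutes. For 11 it was above that at 1, 2 and 4 cells. How many of all tested genes did the same was not counted. The 61 genes were chosen for low levels within the window of 10 to 50 minutes, which can favour higher values later. The embryos from 140 minutes on are also in other libraries, so no return of these transcripts can be read from these values. CJA17181 stood at 45.2 ± 45.0 CPM at 60 to 100 minutes (SD, n = 5) and at 117 ± 133 CPM from 140 to 290 minutes (SD, n = 16), a spread that covers both.

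A wider set of new transcripts was described without a test. The low-count filter drops genes that do not reach a set level in enough embryos, whichever group holds them. All 3955 genes were therefore also sorted by summed reads. Of these, 27 had at most 10 CPM (3 reads or fewer) at 1, 2 and 4 cells and at least 50 CPM at 10 to 50 minutes, and 7 had the opposite pattern. These limits were chosen after the values were seen, and summed reads weight the 30 and 50 minute embryos, so the counts are a description only. Only 10 of the 27 entered the test, and 8 of these passed. At least 1 read was found for 13 of the 27 at 10 minutes, 19 at 20 minutes, 14 at 40 minutes and all 27 at 30 and at 50 minutes. Their summed level was 58.4, 198 and 166 CPM at 1, 2 and 4 cells. It was 1823, 1717, 4269, 3157 and 5285 CPM at 10, 20, 30, 40 and 50 minutes, so all 5 later embryos were above all 3 earlier ones, as the choice favours. It was 4949 CPM at 90 minutes and 3636 CPM at 100 minutes, above the 20 minute value, unlike the summed level of the 8 called genes. The level at 50 minutes was above that at 30 minutes for 20 of the 27.

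After 50 minutes the mean levels of these 27 genes went either way, which was not tested. In 14 the mean at 60 to 100 minutes was no higher than at 10 to 50 minutes, in 1 case at 53.2 against 53.3 CPM. In 13 it was higher, up to 677 CPM from 120 CPM in the gene with the highest level at 60 to 100 minutes. The 27 were chosen for their level at 10 to 50 minutes, so the choice favours lower values later. How many of all genes did the same was not counted. From 300 to 430 minutes 20 of the 27 had a mean under 10 CPM, and 10 had 0 reads. The gene with the highest late level rose over the libraries from 53.3 CPM at 10 to 50 minutes to 237 CPM from 140 to 290 minutes and 358 CPM from 300 to 430 minutes, values that were not tested. The 7 genes of the opposite pattern had mean levels of 43.95 to 218 CPM at 1, 2 and 4 cells and 2.07 to 49.6 CPM at 10 to 50 minutes. All 7 stood above their level at 10 to 50 minutes from 300 to 430 minutes. They were chosen for low levels at 10 to 50 minutes, so the choice favours higher values later. The late embryos are also in another library, so no recovery can be read from this count.

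**Figure D5:**
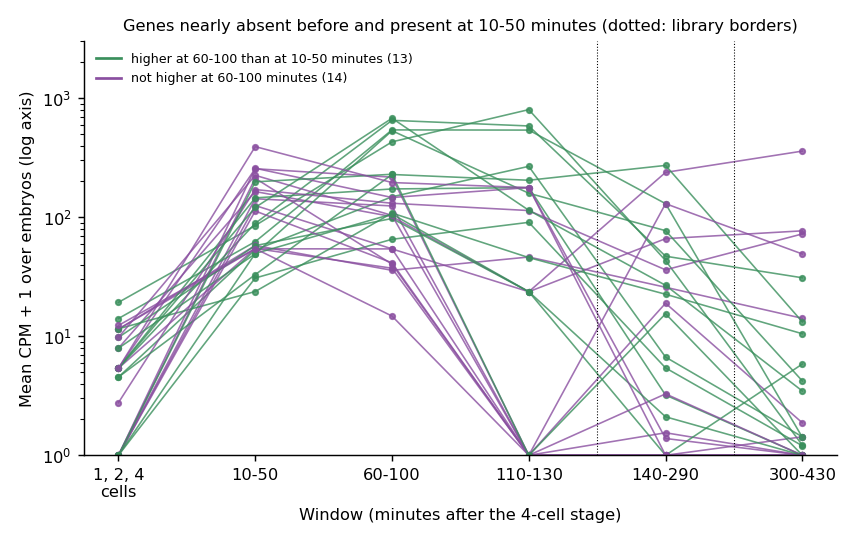
Mean CPM + 1 (log axis) of the 27 genes with at most 10 CPM before and at least 50 CPM at 10 to 50 minutes by summed reads, over the embryos of each window; dotted lines mark the borders between libraries. In 13 genes the level went on to higher values at 60 to 100 minutes and in 14 it did not, and most were under 10 CPM from 300 to 430 minutes; the 110 to 130 minute window holds 3 shallow embryos.

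The most abundant transcript did not pass the test. CJA38444, the gene with the highest mean over the 8 embryos, stood at 7830, 8777 and 9922 CPM at 1, 2 and 4 cells. At 10 to 50 minutes it ranged from 9470 to 12360 CPM with a median of 10098, and the groups overlapped. The log2 change was 0.17 with a 95% interval from -0.41 to 0.75. CJA19085 stood at 6194 ± 178 CPM (SD, n = 3) and 6012 ± 956 CPM (SD, n = 5), a log2 change of -0.11 with an interval from -0.73 to 0.52. These genes have the narrowest such intervals around 0 among those of at least 100 CPM, and changes within the intervals are not detectable here.

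The use of alternative 3′ ends was compared through the peaks of each gene, places where reads pile up at a 3′ end. A peak's location is a number within its gene whose direction is not stated, so a higher location cannot be read as a longer or a shorter 3′ end. With edgeR's test of peak usage, 0 of 391 genes passed (0%), with 19 at an unadjusted p under 0.05. A quasi-binomial regression also called 0, with 21 of 365 genes at an unadjusted p under 0.05. In the 320 genes with 2 peaks and a share in at least 2 embryos of each group, the share of the higher-location peak differed by a median of 1.21 percentage points, with quartiles of -5.39 and 8.17, and 38 genes differed by more than 20 points.

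Of the 346 genes with 2 tested peaks, the one with the smallest p in each direction is given as an example. Neither passed. In CJA16387 the peak at location 3961 held 1 of 16 reads at 1 cell and 0 of 6 at 4 cells, and 2 of 4, 10 of 17 and 22 of 29 at 20, 30 and 50 minutes, while the 2-cell, the 10 and the 40 minute embryos had 0 reads of the gene's peaks. The groups did not overlap where there were reads, and the edgeR adjusted p was 0.139. In CJA23482 the peak at location 868 held 94.5% of 330, 95.9% of 97 and 89.4% of 66 reads at 1, 2 and 4 cells. It held 85.7% of 14 and 94.7% of 19 reads at 10 and 20 minutes, 55.1% of 69 at 30 minutes, 1 of 2 reads at 40 minutes and 43.2% of 44 at 50 minutes. The 20 minute embryo thus overlapped with the earlier ones, and the edgeR adjusted p was 0.185. Without the shallow embryos 3 of 389 genes passed, with CJA23482 among them (edgeR adjusted p = 0.0397), and without the 10 minute embryo 3 passed, with both named genes among them (0.0370 for CJA23482 and 0.0479 for CJA16387).

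None of the 3 measures of each embryo as a whole passed the test after adjustment. With so few embryos, a measure could pass only if all 3 reached the smallest exact permutation p, so nothing follows from this. Thinned to 12038 reads, the embryos of 1, 2 and 4 cells showed 2498 ± 109 genes (SD, n = 3) and those of 10 to 50 minutes 2487 ± 120 (SD, n = 5, exact permutation p = 0.929, two-sided). Without thinning the numbers were 3266 to 3533 and 2427 to 3594. The 10 most abundant genes of each embryo took 6.47% ± 0.29 and 7.19% ± 1.07 of its reads (exact permutation p = 0.214). Over 138 genes with 2 peaks and at least 3 reads in every embryo, the mean share of the higher-location peak was 46.2%, 46.4% and 44.9% at 1, 2 and 4 cells and 48.7%, 47.5%, 47.4%, 47.5% and 46.8% at 10 to 50 minutes. The groups did not overlap, and the difference of 1.76 percentage points had an exact permutation p of 0.0357, the smallest this design allows, and 0.107 after adjustment over the 3 measures. Without the shallow embryos the set of genes grew to 322, and the difference was 0.471 points (exact permutation p = 0.60, n = 3 each). Embryos and genes both changed there, so that value does not show what the shallow embryos add. Over the 138 genes the groups did not overlap without the shallow embryos either, at 44.9% to 46.4% and 46.8% to 47.5%.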

How the data were processed

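The deposited table holds raw read counts, 1 line for each 3′ end peak and 1 for the total of its gene, per the file headers, and states no normalization. The totals were used for genes, and the listed peaks held 92.4% of them in the 8 embryos. HTSeq 0.5.4p3, Bowtie2 2.1.0 and CASAVA 1.8 appear in the submitters' processing notes. What each did, the genome build and the peak caller are not stated in those sources. No molecular identifiers are named, so counting intervals cover counting error only.

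Each embryo column was matched to its stage and barcode through the deposited sheet. Gene totals were tested with edgeR 4.0.16 (R 4.3.3; filterByExpr by group, TMM factors, quasi-likelihood F test, two-sided) on the 8 embryos, which left 1910 genes with 89.5% of the reads. P-values were adjusted by the Benjamini-Hochberg method across every gene tested, with a threshold of 0.05. The SE is the log2 change divided by the square root of F. The replicate is the embryo, so the error behind each p-value is the variation among embryos of differing age. Peak usage was tested with diffSpliceDGE in genes with at least 50 reads and 2 peaks of at least 10%. Named genes are the 2 largest called changes in each direction with at least 50 reads and no overlap over the 6 deeper embryos, the most abundant gene and the steadiest ones. Other called genes are left unnamed because the files pair no identifier with a symbol. Single values were tested by exact permutation (scipy 1.17.1). The scripts were tested on simulated data. Alternatives used DESeq2 1.42.0 and limma 3.58.1. The groups, lists and rules were chosen with earlier results of these data known.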

Additional observations from a re-analysis of the deposited data

Results flagged for a closer look

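In the group of 10 to 50 minutes, 2 of the 13 sets of values examined had an embryo far from the other 4, and both times it was the 10 minute embryo; chance flags about 1 in 20 such groups. Its reads in the 61 genes lower at 20, 30 and 50 minutes came to 32398 CPM, with a gap to the nearest embryo of 0.789 of the range of the group. Those genes were chosen for low levels at 20, 30 and 50 minutes, and the 10 minute embryo had no part in the choice. The rate of 1 in 20 therefore does not hold for that set. The 10 most abundant genes of the 10 minute embryo took 9.03% of its reads, with a gap of 0.725 of the range. The embryo had 14260 reads.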

How the results depend on the processing

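The 11 called genes (8 higher, 3 lower) became 11 (8, 3) with TMM with singleton pairing, 8 (7, 1) with library size alone, 10 (7, 3) in a fit of the 16 early embryos, 9 (7, 2) with DESeq2 size factors and 6 (5, 1) with summed peaks. There were 23 (7, 16) in a fit of 46 embryos, 30 (9, 21) with DESeq2, 48 (8, 40) with at least 5 reads in 3 embryos, 54 (10, 44) for a slope on position, 1 (1, 0) with limma-trend, 68 (19, 49) with no low-count filter, 69 (8, 61) without the shallow embryos and 111 (12, 99) with limma-voom with quality weights. Without the shallow embryos and the 2-cell embryo, a setting chosen after seeing the data, there were 138 (23, 115). Leaving out each embryo in turn gave 1 to 72 genes, 1 to 10 higher and 0 to 62 lower. The cause was not tested. None of the 4 named genes reversed under the 22 alternatives. CJA32534 passed in 18 and CJA27444 in 17 of 20 (not tested without the 30 or the 50 minute embryo), CJA17181 in 15 and CJA12714 in 14 of 22. None of the 4 passed with limma-trend (adjusted p 0.37 to 0.61) or without the 1-cell embryo (0.13 to 0.27). For peak usage, 3 genes passed without the shallow embryos and 0 to 3 with each embryo left out. The difference in the mean share of the higher-location peak was 0.471 points without the shallow embryos, over 322 genes. With each embryo left out it was 1.32 to 2.03 points, over 138 genes, so the values are not of the same set. In these designs the exact permutation test cannot pass the threshold. No paired analysis was possible because the embryos carry no replicate numbers. Depth limits the 10 and 40 minute embryos, in which 1 read is 70.1 and 83.1 CPM.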
